A study of Homo sapiens with 29 samples.

Results

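The AXL Y750F line is a population of PC9 cells, an EGFR-mutant lung adenocarcinoma cell line, in which AXL was knocked out with CRISPR-Cas9 and an AXL cDNA with tyrosine 750 changed to phenylalanine was put back with a lentivirus. Its 3 libraries, of 29 in the series, were compared with the 18 libraries of the 6 other transduced lines, which carried wild-type AXL (WT) or AXL with another single Y-to-F exchange (Y634F, Y643F, Y698F, Y726F or Y821F) in the same knockout cells. Members were taken by the genotype in the sample labels. Each line was sequenced untreated (UT), after 24 h of erlotinib (E) and after 24 h of erlotinib with the antibody AF154 (EA), with 1 library per line and treatment. A kinase-dead line (KD), the knockout (KO) and the parental cells (PAR) are quoted only beside a value of Y750F. The knockout was analysed for UT and E.

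The lines were sorted as populations and are not single clones, and by the study's text each still held a fraction of cells without AXL. A difference between lines therefore joins the effect of the receptor, of the transduction and of the dish. The deposited unit is TPM, the share of a transcript in the RNA of a library scaled to a fixed total and corrected for its length, summed here per gene. It does not give the depth. Levels and changes are on the log2(TPM + 1) scale, which understates the differences of low genes. All 8 epithelial markers examined were kept in the analysis, with summed levels of 8720 to 11500 TPM in Y750F and 9020 to 12100 TPM in the 6 lines. Leukocyte markers summed to at most 1.06 TPM in Y750F and 2.12 TPM in the 6 lines, neuroendocrine markers to at most 1 and 2.2 TPM, endothelial markers to at most 7.35 and 10.4 TPM, and fibroblast markers to at most 58.1 and 73 TPM.

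AXL is a receptor tyrosine kinase of the TAM family, named after TYRO3, AXL and MERTK, whose ligands are GAS6 and PROS1. Ligand or a clustering antibody such as AF154 brings receptors together, tyrosines of the intracellular part are phosphorylated, and adaptors and kinases dock on them. Erlotinib blocks the kinase of EGFR, on which PC9 cells depend, and AXL is known as a bypass receptor under EGFR inhibition. Phenylalanine has the ring of tyrosine without the hydroxyl group that carries the phosphate, so a Y-to-F exchange removes 1 phosphorylation site and leaves the rest of the receptor.

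The codons concerned are shown because they are the only designed difference between these lines. In the coding sequence of the longest AXL transcript of GENCODE release 29 (AXL-201, GRCh38, plus strand of chromosome 19), all 6 numbered codons are tyrosine codons. Each line gives the reference sequence 5′ to 3′ with the tyrosine codon in capitals between 15 bases on either side.
Y750: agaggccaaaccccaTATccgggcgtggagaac
Y634: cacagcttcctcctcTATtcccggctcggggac
Y643: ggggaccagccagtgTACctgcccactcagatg
Y698: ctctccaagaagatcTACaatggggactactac
Y726: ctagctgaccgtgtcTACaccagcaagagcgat
Y821: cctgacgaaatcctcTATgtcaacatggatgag
The codon of Y750 lies in exon 19 at chr19:41257544-41257546, between that of Y726 in exon 18 at chr19:41256591-41256593 and that of Y821 in exon 20 at chr19:41259680-41259682. The codons of Y634, Y643 and Y698 lie further 5′, in exons 16, 17 and 18. The mutant codons themselves are not in the deposited table, which holds levels and no reads.

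AXL (chr19:41219203-41261766) was measured at 423 TPM in untreated Y750F cells, 852 TPM with E and 849 TPM with EA. In the 6 other lines it ran from 217 to 428 TPM untreated (median 304), from 408 to 807 TPM with E (median 542) and from 338 to 762 TPM with EA (median 487). Y750F was thus above all 6 lines with E and with EA, and second to Y726F when untreated. The knockout, whose edited gene was still transcribed, had 92.4 TPM untreated and 79.3 TPM with E. As a mean over the treatments, AXL in Y750F exceeded the mean of the 6 lines by 0.61 ± 0.26 (SE) on the log2 scale, 1.53-fold, which did not pass limma's test (adjusted p = 0.999). In order of this mean, Y750F (9.40) was followed by Y726F (9.33), Y698F (8.99), Y643F (8.76), Y821F (8.75), Y634F (8.60) and WT (8.28), and the line means were not tested against each other.

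**Figure D1:**
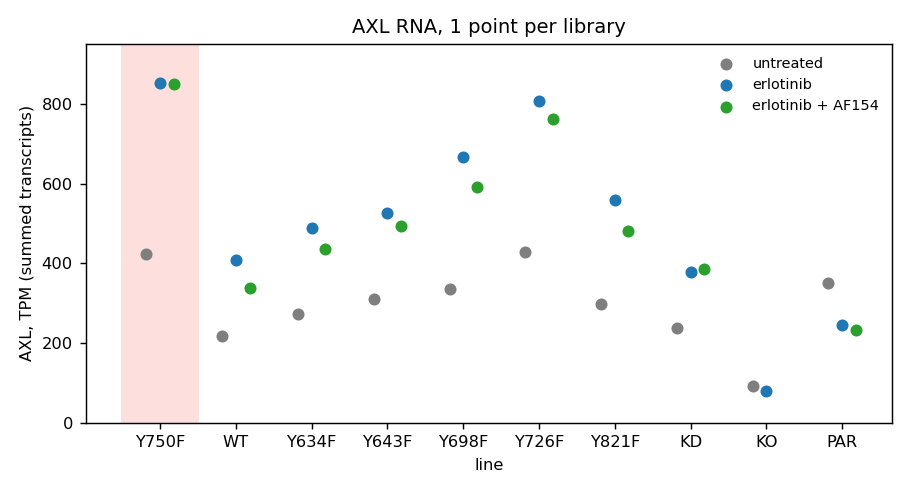
AXL level in TPM (vertical axis) for each of the 10 lines (horizontal axis), 1 point per library, grey untreated, blue erlotinib and green erlotinib with AF154. Y750F, shaded, has the highest points with E (852 TPM) and EA (849 TPM).

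By transcript, the excess of Y750F was uneven. AXL-203, whose annotated sequence holds all 6 codons, was at 152, 342 and 319 TPM in Y750F in the order UT, E and EA, above the highest other line each time (136, 304 and 286 TPM, all Y726F). AXL-205, a retained-intron model of the 5′ part of the gene that holds none of the 6 codons, was at 90.8 TPM untreated, inside the range of the 6 lines, and at 273 and 289 TPM with E and EA, above their highest values of 260 and 243 TPM. AXL-202, which also holds all 6 codons, was at 121, 189 and 196 TPM, inside the range of the 6 lines in UT and E (highest 127 and 192 TPM) and above it with EA (184 TPM). AXL-201 was at 57.2, 47.1 and 44.5 TPM, inside the range in every treatment. In the knockout, AXL-203 was at 12.1 and 12.6 TPM and AXL-205 at 0.182 and 0.192 TPM in UT and E. AXL-202 was there at 33.0 and 26.2 TPM and AXL-201 at 41.8 and 39.6 TPM. Parental cells had at most 16.3 TPM of AXL-203 and 7.27 TPM of AXL-205. How reads were divided among overlapping models is the authors' assignment. Within a model, reads of the transduced cDNA and of the edited gene are not separated, and the part of the cDNA in each model was not tested.

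The first comparison asked which genes differed in level between Y750F and the 6 other lines. Of the 9085 genes whose TPM averaged 10 or more across all 29 libraries, 0 passed at an adjusted p of 0.05 (0%, limma on line means, Y750F against 6 lines). Without adjustment 282 genes (3.1%) had a p under 0.05, 248 lower and 34 higher in Y750F. With the 21 libraries as separate samples and treatment as a block the count was again 0, with 601 genes under 0.05 unadjusted, and with the libraries of a line treated as correlated it was 0, with 352. The lone Y750F line was assumed to vary like the others, and an exact permutation of 1 line against 6 cannot give a p below 0.143. The 95% interval of a level difference was ± 0.216 on the log2 scale for the median gene before adjustment, so differences of that size were not detectable gene by gene. The median difference over all genes was −0.04, and the 5th and the 95th percentile of the differences were −0.21 and 0.11.

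The genes below are therefore a description of where Y750F stood, chosen by position and with no call. A level of Y750F beyond all 6 lines in UT, E and EA alike was found for 10 higher genes (0.11% of 9085) and 96 lower genes (1.06%). This split depended on the scaling of the libraries, since after centring each library on its median the counts were 46 higher and 37 lower, and after quantile normalization 21 and 34. Of the 96 lower genes 36 remained lower after centring and 31 after quantile normalization. Counted in the same way, the other lines were lowest in all 3 treatments for 10 genes (Y698F) to 151 genes (WT) and highest for 6 genes (Y726F) to 300 genes (Y643F), so the counts of Y750F lay within those of its peers. The spread of the level differences over genes was also ordinary, with an SD of 0.113 in Y750F and 0.112 to 0.142 when each of the 6 lines was set against the rest.

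**Figure D2:**
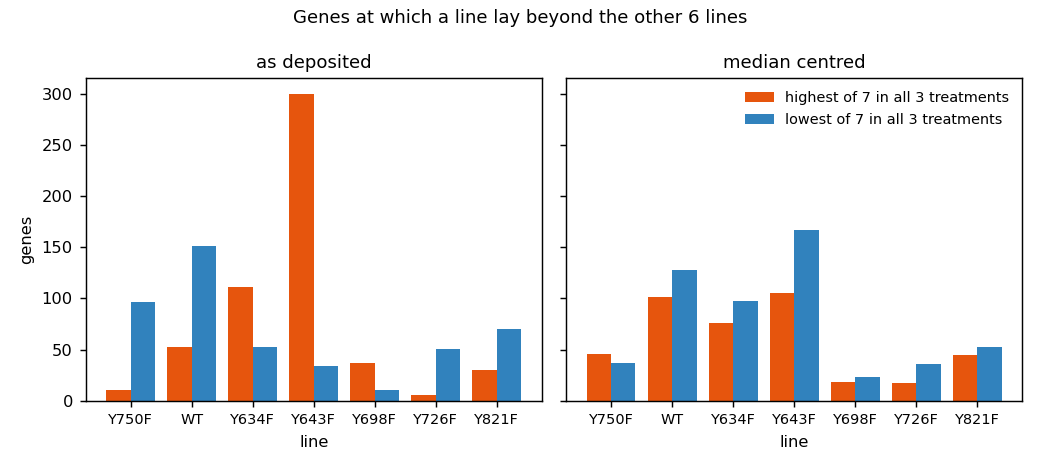
Number of genes (vertical axis) at which each of the 7 lines (horizontal axis) was the highest (orange) or the lowest (blue) of the 7 in all 3 treatments, with levels as deposited on the left and with median-centred libraries on the right. For Y750F the bars are 10 and 96 on the left and 46 and 37 on the right.

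The lower gene with the largest difference, KRT13 (chr17:41500981-41505705), is a keratin of mucosal epithelium. It was at 12.1, 9.16 and 8.62 TPM in Y750F in the order UT, E and EA. In the 6 lines it ran from 16.2 to 37.3 TPM untreated (median 31.6), from 11.8 to 28.5 TPM with E (median 19.8) and from 14.2 to 36.3 TPM with EA (median 18.2). Y750F was the lowest of the 7 in each treatment and its mean was 1.07 ± 0.30 (SE) below that of the 6 lines on the log2 scale, 0.476-fold. With 1 bulk library per condition, fewer cells with KRT13 and less KRT13 RNA per cell cannot be told apart. KRT6A, a keratin of stratified and activated epithelium, was at 31.9, 3.1 and 4.55 TPM against 35.7 to 50.6, 4.17 to 8.61 and 4.95 to 12.6 TPM. KRT5, its type II relative of basal cells, was at 3.2 to 3.37 TPM in Y750F, and in untreated cells it lay inside the range of the 6 lines (3.19 to 6.01 TPM).

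CEACAM6 (chr19:41750977-41772208), a surface adhesion glycoprotein of epithelial cells, was at 58.3, 5.88 and 7.73 TPM in Y750F. The 6 lines held 79.0 to 118 TPM untreated (median 92.8), 8.18 to 16.3 TPM with E (median 10.1) and 10.9 to 23.6 TPM with EA (median 13.8), without overlap with Y750F in any treatment. The difference of the means was −0.77 ± 0.24 (SE). The membrane mucin MUC20 was at 5.61, 34.7 and 46.7 TPM against lowest values of 7.1, 54.3 and 52.1 TPM, a difference of −0.64 ± 0.26. PSCA, a lipid-anchored surface protein, was at 24.2, 112 and 110 TPM, just under the lowest of the 6 lines (25.2, 132 and 124 TPM), and it no longer lay below all 6 after centring or quantile normalization.

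Both RARRES1 and PLAAT4, the latter long named RARRES3, are known as genes induced by retinoic acid. RARRES1 (chr3:158696892-158732696) was at 2.38, 18.6 and 18.7 TPM in Y750F, and at 3.92 to 15.1 (median 5.14), 22.9 to 54.9 (median 29.4) and 22.1 to 35.1 TPM (median 27.9) in the 6 lines. PLAAT4 was at 14.2, 72.2 and 63.9 TPM in Y750F, and at 20.5 to 41.9 (median 24.6), 84.1 to 148 (median 96.9) and 66.6 to 129 TPM (median 87.7) in the 6 lines. Both genes had higher values with erlotinib in every one of the 7 lines, and Y750F had the lowest place among the 7 before and after treatment. The parental cells, which have their own AXL, were also below the 6 lines, with RARRES1 at 2.69 and 17.6 TPM and PLAAT4 at 12.7 and 62.1 TPM in UT and E. The differences of the means were −0.80 ± 0.30 and −0.63 ± 0.27 (SE).

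**Figure D3:**
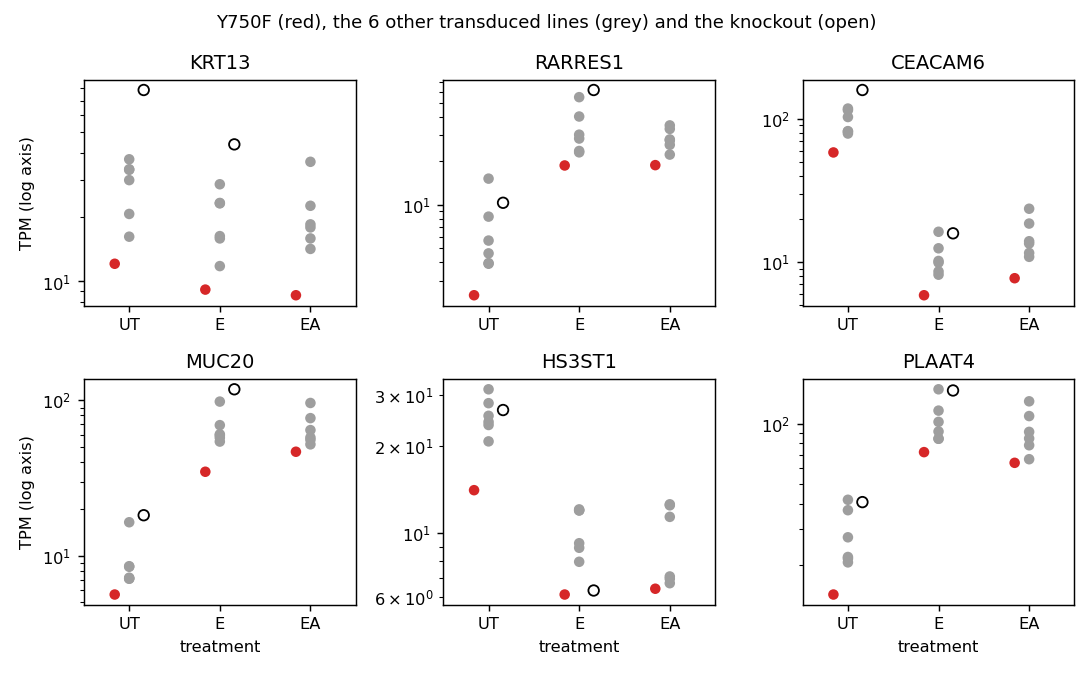
Levels in TPM on a log axis (vertical) in untreated (UT), erlotinib (E) and erlotinib with AF154 (EA) libraries for the 6 lower genes with the largest differences, with Y750F in red, the 6 other transduced lines in grey and the knockout as open circles (UT and E only). Y750F lies under every grey point in each panel and treatment, for KRT13 at 12.1, 9.16 and 8.62 TPM.

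The remaining lower genes selected by size were HS3ST1, which adds 3-O-sulfate to heparan sulfate (14.1 TPM untreated against 20.8 to 31.5), the adaptor FYB1 (5.13 against 7.11 to 14.1), the zinc finger factor ZBTB14 (8.66 against 9.97 to 14.5), the ankyrin repeat protein ANKRA2 (6.07 against 9.27 to 19.6) and SYTL2, an effector of RAB27 in secretion (3.73 against 3.93 to 6.25). With E the gap was narrow for ZBTB14, at 8.42 TPM in Y750F and 8.54 TPM in Y821F. ZBTB14 lay inside the range after centring, and HS3ST1 and SYTL2 did after quantile normalization, so that with PSCA 10 and 9 of the 12 lower genes stayed below all 6 lines. Over the 96 lower genes the median difference was −0.22, from −0.08 to −1.07, and 10 exceeded 0.5 in size. Others among them, named after their values were seen, were WFDC2, TSPAN1, LYPD3, KLK6, ANXA9, SOX9, HES1, WNT5A and PITX1.

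**Figure D4:**
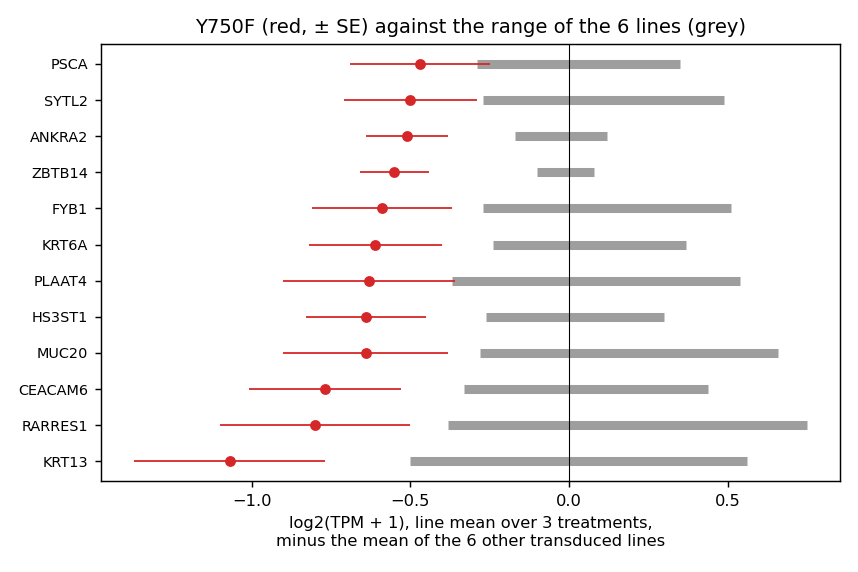
Line mean of log2(TPM + 1) over the 3 treatments relative to the mean of the 6 other transduced lines (horizontal axis) for the 12 lower named genes (vertical axis). Red points with bars are Y750F ± SE and grey bars span the 6 lines. The red points run from −1.07 for KRT13 to −0.47 for PSCA.

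The higher genes had smaller differences. SGMS2, a sphingomyelin synthase of the plasma membrane, was at 19.7, 12.2 and 12 TPM in Y750F in the order UT, E and EA, and at 15.4 to 19.2, 8.19 to 11.8 and 8.91 to 11 TPM in the 6 lines, a difference of 0.25 ± 0.11 (SE). COL4A5, a chain of basement membrane collagen, was at 79.6, 125 and 128 TPM against highest values of 74.8, 120 and 118 TPM, a difference of 0.21 ± 0.08. AKAP12, an anchor of protein kinase A, differed by 0.17 ± 0.10, and with E it was at 46.5 TPM, close to the highest of the 6 lines at 46.1 TPM. All 3 stayed above the 6 lines after centring and after quantile normalization.

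Also among the higher genes were 4 ribosomal proteins, RPL36A, RPL12, RPL11 and RPL6, with differences of 0.20, 0.11, 0.09 and 0.08. After centring all 4 were still above the 6 lines, and after quantile normalization RPL11 alone was. Ribosomal protein genes as a family, examined after these values were seen, were higher than the mean of the 6 lines for 74 of 82 genes, with a median difference of 0.06 beside −0.04 over all genes, 68.5% of which were lower, and 0 of the 82 were called. Their summed share of TPM was 14.6% in untreated Y750F cells, above the 12.1 to 13.7% of the 6 lines, and inside the range with E (12.4%, against 11.3 to 12.6%) and EA (11.5%, against 10.4 to 12.5%). The untreated Y750F library also had the fewest genes at 10 TPM or more, 8717 against 8852 to 9072. TPM is a share of a fixed total, and the part of this composition in the many small negative differences was not tested.

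Where the knockout stood on these genes was set beside Y750F, because the transduced lines were made from it. Of the 12 lower genes, the knockout exceeded the highest of the 6 transduced lines for 7 when untreated, for 5 with E and for 4 in both. Of the 9 higher genes, it lay below all 6 lines for 3 when untreated, for 6 with E and for 3 in both. The like shares over all genes were not computed, so these counts are not a trait of the genes named. KRT13 was at 78.7 and 43.8 TPM in the knockout and PSCA at 65.4 and 278 TPM, and RARRES1 was at 10.3 TPM untreated, inside the 6 lines, and 61.5 TPM with E. In others of the 12 lower genes the knockout lay below all 6 lines, though for 0 of the 12 in both treatments. These were ZBTB14 untreated (8.32 TPM, lowest line 9.97) and, with E, HS3ST1 (6.34, lowest 7.97), KRT6A (3.92, lowest 4.17) and SYTL2 (11.7, lowest 12). The line next to Y750F at the low end was most often Y726F (5 of 12 genes), which was also next to it in AXL, and the line at the high end was most often Y643F (7 of 12). Over all genes kept these lines stood on the same sides, with median level deviations from their peers of −0.021 in Y726F and 0.061 in Y643F. Y726F was also the line most often next to Y750F among the higher genes (3 of 9). AXL RNA was highest in Y750F and Y726F, and the part of its level in these differences was not tested. The kinase-dead line lay below all 6 lines in UT and E for 1 of the 12, RARRES1 (3.19 and 19.2 TPM), and the parental cells for 3, RARRES1, PLAAT4 and HS3ST1 (18 and 6.34 TPM, beside 14.1 and 6.14 TPM in Y750F). In KRT13 the parental cells were above all 6 lines, at 72.5 and 78.8 TPM.

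Among the TAM genes, 3 of 5 were kept. GAS6 (chr13:113820549-113864067), the ligand of AXL, was at 30.6, 58.2 and 59.0 TPM in Y750F and at 35.3 to 41.0 (median 37.6), 61.5 to 76.1 (median 69.8) and 59.5 to 69.3 TPM (median 62.4) in the 6 lines. Y750F was lowest in all 3 treatments, narrowly so with EA. The difference of the means was −0.22 ± 0.09 (SE). TYRO3 was inside the range of the 6 lines in each treatment, for example at 14.1 TPM with E (8.39 to 15.4 TPM).

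In the 24 gene lists examined, which include the TAM list, 0 genes were called. The counts of lower members stand beside 68.5% of all 9085 genes lower in Y750F as deposited and 44.8% after centring. The 9 genes kept of the lung lineage, secretory and mucin list were all lower in Y750F, with a median difference of −0.16 beside −0.04 over all genes, and 2 of them, CEACAM6 and SOX9, were beyond all 6 lines. MUC16 differed by −0.40 ± 0.20 (SE) and the epithelial transcription factor ELF3 by −0.25 ± 0.12, each overlapping the 6 lines in at least 1 treatment. Among the 10 genes kept of the keratin list, which does not hold KRT13, 8 were lower, with a median of −0.12. Among 19 NRF2 targets 16 were lower, with a median of −0.05 that was 0 after centring, and 2 of the aldo-keto reductases stood out. AKR1B10 was at 42.5, 59.4 and 66.3 TPM in Y750F against lowest values of 46.4, 73.5 and 77 TPM in the 6 lines, and AKR1C1 at 434, 457 and 528 TPM against 515, 507 and 541 TPM. The differences of the means were −0.42 ± 0.09 and −0.33 ± 0.12 (SE), with adjusted p of 0.887 and 0.999 in limma. Adaptors and proximal kinases of AXL (28 genes, 20 lower, median −0.06), YAP/TAZ targets (19, 13 lower, −0.03) and epithelial junctions (20, 17 lower, −0.07) were near the median of all genes. Lysosomal genes (19, 17 lower) had a median of −0.09 beside −0.04 over all genes, and the 13 mitochondrially encoded genes had a median of 0.04. As medians of the level itself, 8 of the 24 lists lay below all 6 lines as deposited and 0 above. YAP/TAZ targets and lysosomal genes were among the 8. The median of all genes was also below, at 5 against 5.03 to 5.107. After centring 5 lists lay below (TAM, glycolysis and hypoxia, ATF4, NRF2 and lysosomal genes) and 1 above, the AXL adaptors. For some of these lists the median of the differences went the other way. The level median of the 3 TAM genes was that of GAS6, whereas 2 of the 3 were higher in Y750F, with a median difference of 0.12. For ATF4 genes the median difference after centring was 0.01, and 20 of the 28 adaptors were lower as deposited. By chromosome the median difference ran from −0.089 on chromosome 20 (267 genes) to 0.014 on chromosome 9 (364 genes).

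The second comparison asked whether the response of Y750F to erlotinib differed from that of the 6 other lines. Its change from UT to E had an SD of 0.741 over genes, against 0.684 to 0.766 in the 6 lines, and 663 genes were more than 2-fold up and 657 more than 2-fold down, against 530 to 669 and 538 to 675. Across genes, which are not independent replicates, it correlated with the mean change of the other lines at r = 0.944, and each of the 6 lines against its own peers gave 0.909 to 0.952. No gene was called for a different change (0 of 9085, 0%, limma). Without adjustment 369 genes (4.06%) had a p under 0.05, and the median gene's 95% interval was ± 0.39. The change of Y750F lay above the range of the 6 lines for 1336 genes (14.7%) and below it for 1072 (11.8%), and in 6 peers the like counts were 859 to 1924 and 1111 to 2246.

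The lists with the largest erlotinib changes had changes of a like size in Y750F and in its peers. Genes of ERK output and feedback, which report EGFR signalling, had a median change of −2.71 in Y750F and −2.79 to −2.08 in the 6 lines, and all 8 were below 0. DNA replication genes had a median of −2.23 against −2.40 to −1.96, and mitosis genes −1.17 against −1.36 to −1.19. As examples, the helicase subunit MCM6 had a change of −2.63 (6 lines −2.81 to −2.21), the ribonucleotide reductase subunit RRM2 of −2.43 (−3.04 to −1.87) and the ERK-induced gene PHLDA1 of −3.21 (−3.34 to −2.90).

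Of the 24 lists, the median change lay above all 6 lines for 7 and below them for 2, and for 6 and 2 after centring. The 2 lowest were the same lists under both scalings. Mesenchymal and matrix genes had a median change of 0.44 in Y750F and 0.71 to 0.86 in the 6 lines, whereas the median over genes of the difference from the mean of the 6 lines had the other sign, 0.09. Only 1 of the 13 genes was itself below the range, SNAI2, a transcription factor of epithelial-mesenchymal transition, and 2 were above it. SNAI2 was at 12.3 TPM untreated and 17.0 TPM with E, a change of 0.44 against 0.77 to 1.29, with an untreated level above and a treated level below all 6 lines (9.42 to 10.7 and 18.3 to 27.4 TPM). ATF4 and amino acid supply genes had a median of −0.50, against −0.42 to −0.12 in the 6 lines and −0.63 in the kinase-dead line. NRF2 targets lay above the range, at 0.47 against 0.28 to 0.38, and mitochondrially encoded genes at 0.13 against −0.14 to 0.10, with 8 of 13 genes above the range. Integrins, laminins and focal adhesions (0.24 against 0.03 to 0.21) and TGF-beta and BMP signalling genes (0.28 against 0.07 to 0.25) also lay above it, and these 4 lists did so after centring too. The mitochondrial share of TPM in Y750F went from 13.1% untreated to 14.2% with E, the latter above the 12.3 to 13.4% of the 6 lines. The lung lineage and secretory list was at 1.48 against 0.77 to 1.46, with no gene outside the range, and it was not above the 6 lines after centring.

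The 5 genes furthest above and the 5 furthest below the range in their erlotinib change gave no call and were mostly uneven between the lines. MTHFD1, an enzyme of folate metabolism, had a change of 0.21 in Y750F and of −2.07 to −1.03 in the 6 lines, a difference of 1.75 ± 0.33 (SE). Its level in Y750F was 30.5 TPM untreated, below all 6 lines (54.9 to 109 TPM), and 35.5 TPM with E, inside their range (15.8 to 37.7 TPM), so the gap arose in the untreated library. PHLDA2, an imprinted growth regulator, had a change of −2.88 against −2.08 to −1.36, from 37.5 TPM inside the untreated range to 4.23 TPM, below the 9.24 to 14.7 TPM of the 6 lines with E. ARHGAP22, a GTPase-activating protein of Rac, had a change of −3.26 against −2.77 to −1.94, and COL11A1, a fibrillar collagen chain, of 2.75 against 0.52 to 1.93. KLK4 and THSD8 above the range and TMC4 below it differed by 1.92, 1.38 and −1.21. EIF3CL, CDK7 and LSM2 had differences of 2.03, −2.10 and −1.37 with SE of 1.42, 0.78 and 1.11, and EIF3CL and LSM2 ran from 1.14 to 123 TPM and from 4.14 to 69.7 TPM over the 6 untreated lines. EIF3CL has a near-identical copy, so its reads may be split between the copies.

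**Figure D5:**
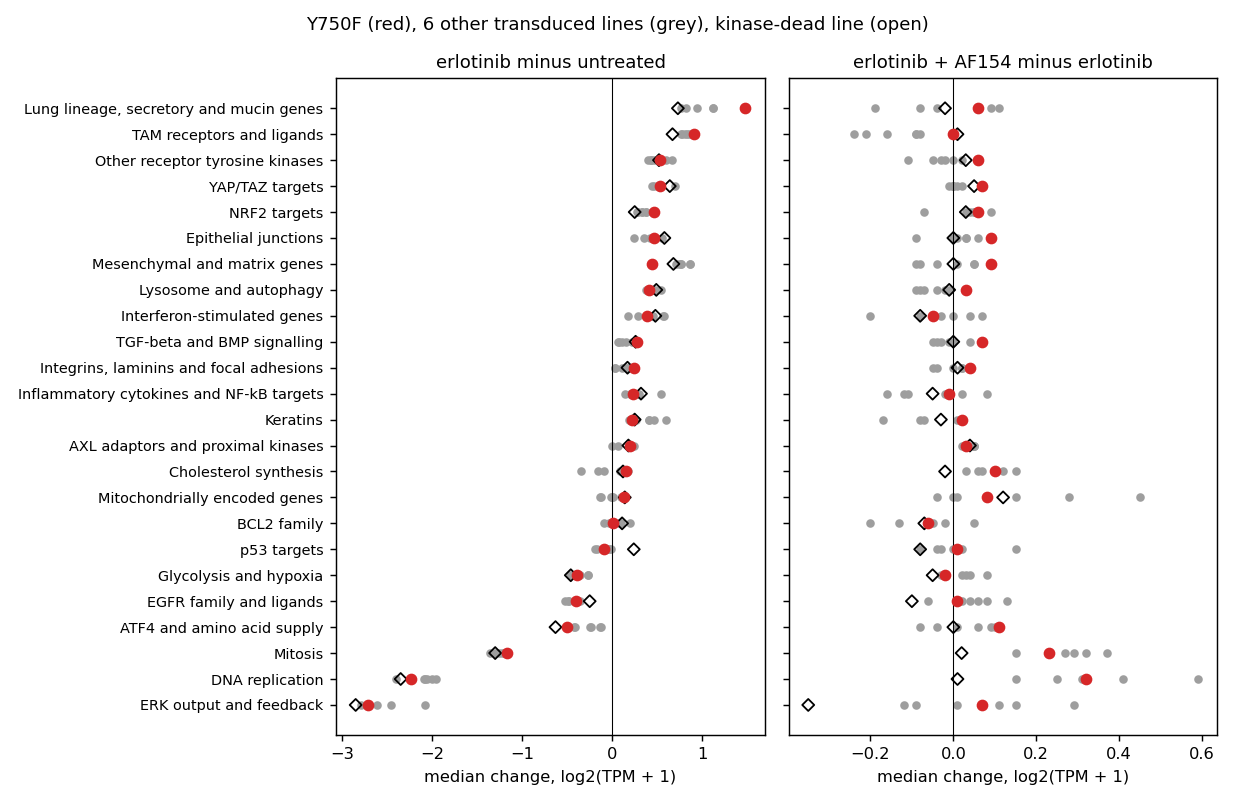
Median change of each of the 24 gene lists (vertical axis) on the log2(TPM + 1) scale (horizontal axes, which differ in range) from untreated to erlotinib on the left and from erlotinib to erlotinib with AF154 on the right, with Y750F in red, the 6 other transduced lines in grey and the kinase-dead line as open diamonds. DNA replication genes with AF154 are at 0.32 in Y750F, inside the grey points, and at 0.01 in the kinase-dead line.

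The third comparison asked how Y750F responded to activation of AXL by AF154 under erlotinib. This change, EA minus E, uses the same E library as the erlotinib change, so a high or low value there moves both. It was small in every line, with an SD over genes of 0.245 in Y750F and 0.225 to 0.339 in the 6 lines. No gene was called for a different change (0 of 9085, 0%, limma), and 316 genes (3.48%) had an unadjusted p under 0.05. Across genes the change of Y750F correlated with the mean change of the other lines at only r = 0.327. Each of the 6 lines against its own peers gave −0.005 to 0.403. Y750F lay above the range of the 6 lines for 1362 genes (15%) and below it for 805 (8.86%). In the 6 peers the like counts were 1088 to 1526 and 862 to 2173. The excess above the range depended on scaling, since after centring the counts were 874 and 1164, which moved the share above from 62.9 to 42.9%.

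Proliferation genes had positive changes with AF154 in Y750F, of a size within that of its peers. DNA replication genes had a median change of 0.32 in Y750F, inside the 0.15 to 0.59 of the 6 lines, and all 19 were above 0, against 15 to 18 in the 6 lines. Mitosis genes had a median of 0.23, inside 0.15 to 0.37, and again all 19 were above 0, against 17 to 19 in the 6 lines. In the kinase-dead line, which has a single library per treatment as well, the medians were 0.01 and 0.02 and 11 of 19 genes of each list were above 0. The difference between Y750F and the kinase-dead line was not tested, as it would set 1 line against 1. As examples, CLSPN, a replication checkpoint adaptor, had a change of 0.59 in Y750F (6 lines 0.17 to 0.83), MCM6 of 0.26 (0.17 to 0.73) and the spindle checkpoint kinase BUB1 of 0.14 (0.19 to 0.40), the last below all 6. ERK output genes had a median of 0.07 in Y750F, against −0.12 to 0.29 in the 6 lines and −0.35 in the kinase-dead line.

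AXL itself had a change of 0.00 with AF154 in Y750F and of −0.27 to −0.08 in the 6 lines, and GAS6 of 0.02 against −0.24 to −0.05, so both lay above the range. Both belong to the 3 genes kept of the TAM list, whose median of 0.00 was above the −0.24 to −0.08 of the 6 lines before and after centring. The kinase-dead line was at 0.01. YAP/TAZ targets had a median of 0.07 against −0.01 to 0.02, other receptor tyrosine kinases 0.06 against −0.11 to 0.02, epithelial junctions 0.09 against −0.09 to 0.06, and mesenchymal and matrix genes 0.09 against −0.09 to 0.05. The median of all genes was itself higher in Y750F, 0.036 against −0.005 to 0.021. Of 8 lists above the 6 lines before centring, the TAM list was the only one that stayed there after centring.

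The genes furthest outside the range in their AF154 change were again not called. DENND11, a DENN domain protein, was at 16.8 TPM with E, inside the 15.6 to 20.6 TPM of the 6 lines, and at 1.11 TPM with EA, below their 10 to 23 TPM, a change of −3.08 against −0.97 to 0.46. Its level difference, −1.23 ± 0.16 (SE), had the lowest adjusted p of the level comparison, 0.124 in limma, and in UT and E its level lay inside the range of the 6 lines. FOXD1, a forkhead factor, had a change of −0.85 against −0.05 to 1.16, and the homeobox gene LBX2 of 0.78 against −0.87 to −0.11, from 15.1 to 26.7 TPM. CDK7, KCNC4, H4C4 and BCL2L2-PABPN1 above the range and KLK4 and H2BC11 below it differed by 2.65, 2.11, 1.63, 1.24, −1.63 and −1.30. CDK7 and KLK4 were also named for their erlotinib change, in the opposite direction, and their E libraries held the extreme values, at 7.64 TPM for CDK7 (6 lines 21.1 to 52.3) and 23.5 TPM for KLK4 (4.95 to 19.4). H4C4 and H2BC11 belong to histone families of near-identical copies, and BCL2L2-PABPN1 is a readthrough gene that shares its sequence with its neighbours.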

How the data were processed

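RNA-seq of 29 PC9 libraries was used, and the 21 libraries of Y750F and of the 6 other transduced lines entered the comparisons. TPM values of single transcripts were deposited by the authors. The submitters' processing notes name kallisto and GRCh38, with no version, and the annotation and strand handling are not given in the sources used here. TPM keeps no depth, so counting error is unknown, and the spread among the lines set the precision.

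Of 188753 transcripts, 169797 were matched by identifier to GENCODE release 29 and summed to 35579 genes, which held 97 to 97.4% of the TPM of a library. Genes averaging 10 TPM or more across all 29 libraries (9085) entered the fits, as log2(TPM + 1). Line means over the 3 treatments, erlotinib minus untreated, and erlotinib with AF154 minus erlotinib were compared between Y750F and the 6 lines in limma 3.58.1 (R 4.3.3; linear model, moderated with a mean trend) with Benjamini-Hochberg adjustment over all genes kept, at 0.05. The libraries of a line come from the same cells and were not counted as replicates. The fits were tested on simulated data.

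Named genes were AXL, up to 12 higher and 12 lower genes beyond all 6 lines in every treatment with the largest level differences, 5 and 5 outside the range for each change, and up to 3 per list, called genes first. Genes without a symbol, pseudogenes, Y-linked genes and XIST were left out of the naming. Some genes that met the rule are not reported here. The comparison, lists and rules were chosen with earlier results of these data known. Alternatives were the pseudocount, filters on low values, median centring, quantile normalization, a test against a log2 difference of 0.5, libraries as samples, other sets of lines and treatments, and leaving out each line.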

Additional observations from a re-analysis of the deposited data

Results flagged for a closer look

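Over 90 values examined, 6 had 1 of the 6 comparison lines far from the other 5 by Dixon's criterion, which chance alone gives in about 1 of 20 groups. The gap divided by the range was 0.682 for the mean level of MUC20, where Y643F was at 5.79 on the log2(TPM + 1) scale and the other 5 lines at 4.85 to 5.15, with Y750F at 4.49. It was 0.643 for SYTL2, with Y643F at 4.01 against 3.25 to 3.52 and Y750F at 3.02, and 0.629 for RPL6, with Y634F at 10.47 against 10.51 to 10.54 and Y750F at 10.59. These 3 genes were among the values because Y750F lay beyond all 6 lines, and it did so on the side away from the line named. For the erlotinib change of LSM2 the ratio was 0.815, with Y698F at 2.72 against −0.97 to −0.28. For the median erlotinib change of DNA replication genes it was 0.721, with Y821F at −2.40 against −2.09 to −1.96 and Y750F, at −2.23, between them. For the median AF154 change of NRF2 targets it was 0.629, with Y821F at −0.07 against 0.03 to 0.09.

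In 4 of the values Y750F moved one way and all 6 lines the other, and these differences were not called by limma where they are genes and were not tested where they are list medians. They were the erlotinib changes of EIF3CL (0.617 in Y750F, −3.887 to −0.121 in the 6 lines) and MTHFD1 (0.211, −2.072 to −1.03), the AF154 change of LBX2 (0.783, −0.87 to −0.108), and the median AF154 change of lysosome and autophagy genes (0.031, −0.092 to −0.013). The median AF154 change of all genes in Y750F was itself 0.036, and after centring the lysosome and autophagy list was not above the 6 lines. EIF3CL, MTHFD1 and LBX2 had been named because their change lay outside the range of the 6 lines, which an opposite sign requires.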

How the results depend on the processing

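The counts of 0 calls by limma held in most settings run. For the level, 1 gene, DENND11, was called with a pseudocount of 0.1 (adjusted p = 0.0446), after quantile normalization (0.0309), without the untreated libraries (0.00824) and without Y821F (0.00314), so leaving out 1 line gave 0 to 1 call. Its level in Y750F was outside the range of the 6 lines with EA and inside it in UT and E. For the erlotinib change, 1 gene was called among the 14111 genes averaging 1 TPM or more, the 5S ribosomal pseudogene RNA5SP180. With no filter the calls were 187 for the level, 239 for the erlotinib change and 234 for the AF154 change, of which 185, 227 and 227 had a mean under 1 TPM.

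The count of genes above all 6 lines in all treatments, 10, became 29 with no filter, 46 after median centring and 21 after quantile normalization, and that of genes below them, 96, became 149, 37 and 34. Over 2 treatments only, which is a weaker condition, the counts above and below were 69 and 239 without UT, 45 and 263 without E and 101 and 644 without EA, and 62 and 418 with KD and KO added over UT and E. Without 1 line they were 13 to 18 and 107 to 167; WT (16 and 160) and Y698F (18) moved the first by over 1.5 times, and WT, Y726F (159) and Y821F (167) the second. Genes above and below the range of the erlotinib change were 2087 and 1741 at an average of 1 TPM or more and 3280 and 2862 with no filter, and for the AF154 change 2092 and 1384, and 3276 and 2541. After centring, 874 lay above the range of the AF154 change. The weaker filters test more genes by construction; for the scalings the cause was not tested.

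Of 42 differences of named genes none had another sign under any of 5 settings. These genes were named because Y750F lay outside all the comparison lines, and the mean of AXL lay above them too. Leaving out a line could therefore not change a sign, and the choice made a change less likely under the other settings. The count for named genes is thus no test of robustness and cannot be set against that of the list medians. The lists were not picked by this rule, but they were chosen with earlier results of these data known. Of 72 list medians the sign differed for 13 after centring and for 8 after quantile normalization, all within 0.04 of 0 as deposited. It differed for 5 with KD added and for 13 without the line whose absence moved the value most, among them the erlotinib change difference of ERK output (−0.07, then 0.07) and the AF154 change difference of the BCL2 family (0.05, then −0.02). Replicates could not be matched across lines, as there was 1 library per line and treatment. Treatments were paired within each line by taking differences, and lines entered as a correlated block in 1 alternative for the level, with 0 calls.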

Other observations

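Single genes of other lists are given as values, none of them called by limma. PHLDA3, a p53 target that restrains AKT, had a level difference between Y750F and the 6 lines of −0.31 ± 0.12 (SE, log2 scale). NT5E, which makes adenosine at the cell surface, differed by −0.28 ± 0.10, EPHA4, an ephrin receptor, by −0.28 ± 0.13, and DDIT4, an inhibitor of mTORC1, by −0.22 ± 0.08. CTSD, a lysosomal protease, was at 292, 354 and 376 TPM in Y750F in the order UT, E and EA, below the 328 to 392 and 392 to 453 TPM of the 6 lines in UT and E and inside their 363 to 422 TPM with EA. MT-ND3, a mitochondrially encoded subunit of complex I, differed by 0.24 ± 0.11 and RRM2 by 0.24 ± 0.19. CDH1, the epithelial cadherin, differed in level by −0.19 ± 0.10, and its AF154 change was 0.37, with the 6 lines at −0.15 to 0.37.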
